A study of Neurospora crassa OR74A with 12 samples.

Results

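The 132 genes described here were chosen from the RNA levels of *Neurospora crassa* mycelia as genes that lay lower with H2O2 in the wild-type (WT) strain but not, on average, in the deletion strain *upf-1*KO. Levels were in counts per library of a fixed size (CPM), scaled by the trimmed mean of M values (TMM), a factor set so that most genes keep their level between libraries. A gene was taken when, with 0.5 CPM added to each group mean, its untreated WT mean was at least 10 CPM, its WT mean with H2O2 was at most 0.4 of the untreated mean, its *upf-1*KO mean with H2O2 was at least 0.8 of the untreated *upf-1*KO mean, and untreated *upf-1*KO lay above 0.5 of untreated WT. The rule was applied to the 7878 genes with enough counts out of 10685 in the table. Of these, 1042 met the conditions without the one on *upf-1*KO with H2O2, and 132 met that one too. The choice used the levels in all 4 groups, so every level and ratio below is a description of the chosen genes and none carries a test.

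UPF-1 is the RNA helicase at the centre of nonsense-mediated mRNA decay (NMD), the pathway that degrades transcripts whose translation ends too early, and it acts with UPF-2 and UPF-3. H2O2 is a reactive oxygen species that damages DNA, proteins and lipids, and cells answer it with catalases and repair enzymes while many growth genes are turned down. The loss of NMD can change an mRNA level directly, through its decay, or through other genes.

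The groups were the WT strain untreated, *upf-1*KO untreated, WT with 20 mM H2O2 and *upf-1*KO with 20 mM H2O2, with 3 libraries from independent pools of mycelia in each. The sample labels give OR74A, the strain of the reference genome, for all 12 samples, while the methods of the study name strains that carry the *bd* mutation of *ras-1*, which lets the conidiation rhythm show on race tubes. The *upf-1*KO strain was made with a hygromycin resistance cassette in a host whose *ku70* gene was inactivated, so *ku70* may separate the strains as well as *upf-1*. Mycelia grew in glucose minimal medium under constant light, and the time in H2O2 before harvest is not given in the sources used here. p-values over 3 pools measure the spread between these pools only, and fewer cells of a type cannot be told apart from less RNA per cell.

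The libraries held 5891672 to 7703271 counts on genes. The *upf-1* gene (NCU04242, chromosome V) had 622 to 748 counts in the untreated WT libraries and 232 to 236 in the untreated *upf-1*KO libraries, so part of its transcript was still counted in the deletion strain. With H2O2 it had 501 to 591 counts in WT and 257 to 375 in *upf-1*KO. In CPM scaled by TMM, it had 68.7 to 74.35 in untreated WT and 135.8 to 176.8 in WT with H2O2, a ratio of 2.08. In *upf-1*KO it had 20.71 to 22.87 CPM untreated and 32.96 to 63.44 CPM with H2O2, a ratio of 2.44. Its direction in WT thus depended on the scaling. All 5 hyphal markers were present in every library, with 9490 to 37985 counts for *hex-1*, the Woronin body protein, and 102 or more for the others. Of the conidial markers, *con-10* had 2 to 20 counts, *con-13* 0 to 27, *con-8* 2 to 39 and *con-6* 0 to 144. The other conidial markers were higher, with 77 to 963 counts for *fl* and 3583 to 103029 for *eas*. The sexual markers (3 matched of 4) summed to 21.2 to 46.2 CPM. Scaling mattered for the treated libraries. The TMM factors were 1.30 to 1.53 in the untreated libraries, 0.481 to 0.602 in WT with H2O2, and 0.802, 1.12 and 0.836 in replicates 1, 2 and 3 of *upf-1*KO with H2O2. With library totals in place of TMM, the median log2 change of all genes with H2O2 moved from -0.13 to -1.36 in WT and from 0.08 to -0.64 in *upf-1*KO.

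Replicate 2 of *upf-1*KO with H2O2 stood apart from the other libraries of its group. Its rank correlation over genes was 0.879 with replicate 1 and 0.873 with replicate 3, whereas replicates 1 and 3 correlated at 0.990, and all pairs of untreated libraries at 0.992 or more. In WT with H2O2, replicate 1 correlated at 0.952 and 0.953 with the other libraries, which correlated at 0.986 with each other. The 10 most counted genes took 12.5% of the counts in replicate 2 of *upf-1*KO with H2O2, against 18.5% and 16.9% in replicates 1 and 3 and 10.1% to 12.2% in the untreated libraries. Over 2040 genes with 6 counts or fewer in all untreated libraries together, this library had 2663 counts, against 986 and 1145 in replicates 1 and 3 and 1506 in WT with H2O2 replicate 1. The part of these properties in the results below was not tested.

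The name under which these genes were proposed, lowered by H2O2 only in WT, went against the separate libraries for most of them. With replicate 1 of *upf-1*KO with H2O2 alone, 34 genes met the rule, and with replicate 3 alone 35, while with replicate 2 alone 395 did. Of the 132 chosen genes, 100 met the *upf-1*KO condition in replicate 2 only, 20 met it in both replicates 1 and 3, and 14 met it in each of the 3 libraries. With replicate 2 left out and the libraries scaled anew, 34 genes met the rule, of which 27 belonged to the 132. The 132 genes are therefore called the chosen genes below. They were divided, after their values were seen, into the 27 whose mean over replicates 1 and 3 alone was at least 0.8 of untreated *upf-1*KO, called the retained genes, and the other 105. These 27 are also the chosen genes that met the rule without replicate 2.

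The median level of the 132 genes was 34.2 to 34.7 CPM in the untreated WT libraries, 24.9 to 26.5 in the untreated *upf-1*KO libraries and 8.84 to 11.7 in WT with H2O2. In *upf-1*KO with H2O2 it was 12.3, 58.3 and 12.3 CPM in replicates 1, 2 and 3. Replicates 1 and 3 thus lay close to the treated WT libraries, and replicate 2 had the highest median of the 12 libraries. The median ratio to untreated *upf-1*KO was 0.476 in replicate 1, 2.17 in replicate 2 and 0.477 in replicate 3, beside 0.964, 1.03 and 0.959 for all genes tested. Replicate 2 was the highest library of its group for 121 of the 132 genes (91.7%), against 3565 of 7878 genes tested (45.3%). It was above all 6 untreated libraries of both strains for 106 genes (80.3%), against 37.9% of all genes tested. Conversely, replicates 1 and 3 were both below all 3 untreated *upf-1*KO libraries for 113 of the 132 genes (85.6%), against 43.7% of all genes tested. Among the 910 genes that met every condition but the one on *upf-1*KO with H2O2, the share was higher, at 99.8%.

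**Figure D1:**
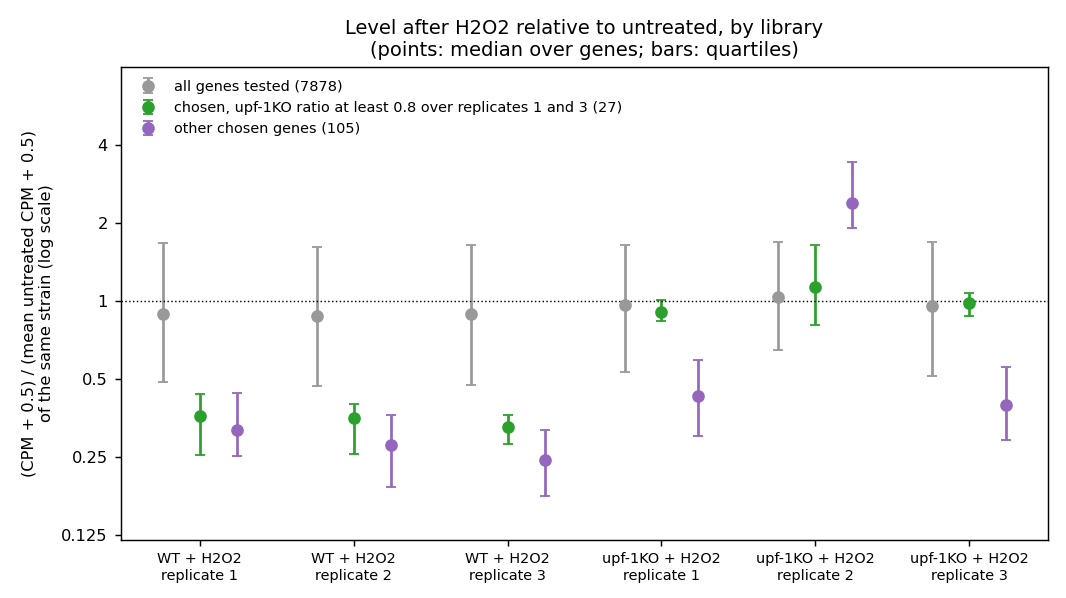
Level after H2O2 relative to the untreated mean of the same strain (log scale), with points at the median over genes and bars at the quartiles, for each of the 6 treated libraries. The 105 other chosen genes have medians of 0.430 and 0.397 in *upf-1*KO replicates 1 and 3 but 2.38 in replicate 2, while the 27 retained genes have medians of 0.908, 1.13 and 0.981 in replicates 1, 2 and 3.

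The plot of ratios by library shows that both groups of genes were low in each treated WT library, and that they parted in *upf-1*KO. Over the 105 other genes, replicate 2 was 6.33 times the mean of replicates 1 and 3 at the median, and more than 2 times both of them for 100 genes. Over the 27 retained genes it was 1.10 times at the median.

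**Figure D2:**
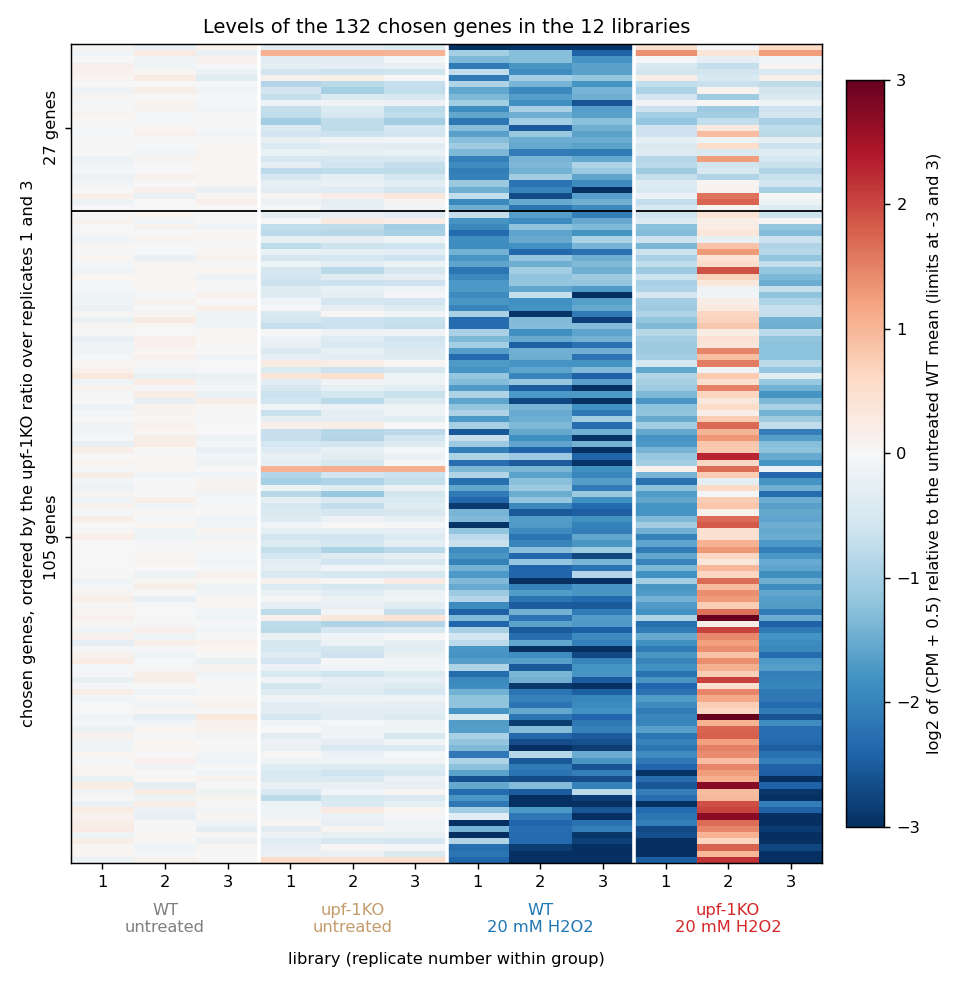
Levels of the 132 chosen genes (rows, ordered by the *upf-1*KO ratio over replicates 1 and 3) in the 12 libraries (columns), as log2 of CPM + 0.5 relative to the untreated WT mean, with colours capped at -3 and 3. The treated WT columns are blue throughout, and below the line that separates the 27 retained genes from the other 105 the column of *upf-1*KO replicate 2 is red for 99 genes, while replicates 1 and 3 are both blue for 103.

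Among the 27 retained genes, the highest level by far was that of *eas* (NCU08457, chromosome II, 3570905 to 3572798), the hydrophobin that forms the water-repellent rodlet layer of conidia and is also known as clock-controlled and light-induced. It had 10279, 8569.8 and 10489 CPM in the untreated WT libraries and 1245, 1264 and 1269 CPM in the WT libraries with H2O2. In *upf-1*KO it had 7859, 7796 and 7239 CPM untreated and 13734, 9781 and 14911 CPM with H2O2. In each strain, the treated and untreated libraries did not overlap. The ratio with H2O2 to untreated was 0.129 in WT and 1.68 in *upf-1*KO, and it was 1.28 in replicate 2, below the 1.80 and 1.95 of the other libraries, so this gene did not rest on that library. As a share of all counts, *eas* took 1.12% to 1.37% of untreated WT, 0.0608% to 0.0749% of WT with H2O2, 1.10% to 1.18% of untreated *upf-1*KO and 1.10% to 1.25% of *upf-1*KO with H2O2. The WT decrease thus stood on either scale, while a higher level with H2O2 in *upf-1*KO stood with TMM (log2 difference 0.75) and not with library totals (0.00). Per length, in the FPKM values of the authors, *eas* ranked at 2 among all genes in the untreated WT libraries, at 182 to 206 in WT with H2O2, and at 4 to 6 in the treated *upf-1*KO libraries.

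Other genes known from conidiation were at low counts beside *eas*. The conidiation gene *con-6* had 9 to 14 counts in untreated WT, 31 to 48 in untreated *upf-1*KO, 0 to 3 in WT with H2O2 and 99 to 144 in *upf-1*KO with H2O2. The conidiation gene *con-8* had 2 to 5 counts in untreated WT and 2 to 14 in WT with H2O2. In *upf-1*KO it had 32 to 39 untreated and 18 to 22 with H2O2. In the same order of groups, *con-10* had 2 to 7, 4 to 7, 5 to 20 and 10 to 18 counts. For *con-13* these were 1 to 5, 0 to 1, 9 to 27 and 4 to 11. The transcription factor gene *fl*, which is needed for conidial budding, had 724 to 963 counts untreated, 77 to 168 in WT with H2O2 and 268 to 426 in *upf-1*KO with H2O2. These counts, like those of the *con* genes, are not scaled by TMM. The TMM factors were lower in the treated libraries, so the decrease of *fl* is smaller in CPM than in counts. Summed without *eas*, the conidial list of 6 reached 81.7 to 91.5 CPM in untreated WT, 83.9 to 95.5 in untreated *upf-1*KO, 30.7 to 44.9 in WT with H2O2 and 58.1 to 99.9 in *upf-1*KO with H2O2. In every library *fl* made up most of this sum, so it mainly describes that gene. The part of these genes in the level of *eas* was not tested. None of these other conidial genes was among the 132. The *con* genes, at 1 to 14 counts in untreated WT, lay below the minimum of 10 CPM whatever their ratio, so only *fl* could have been chosen.

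The gene *cut-1* (NCU04924, chromosome IV), which encodes a protein of the haloacid dehalogenase family and whose mutants are known for sensitivity to high osmolarity, was next in level. It had 385, 364 and 412 CPM in untreated WT and 152, 89.98 and 88.6 CPM in WT with H2O2. In *upf-1*KO it had 338, 332 and 337 CPM untreated and 294, 286 and 299 CPM with H2O2, with replicate 2 the lowest by a small margin. The treated *upf-1*KO libraries were thus all above the treated WT libraries and all somewhat below the untreated ones, with ratios of 0.286 in WT and 0.873 in *upf-1*KO.

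The remaining 25 retained genes have no symbol in the RefSeq table, and no function is given to them here. NCU03050 (chromosome I) varied little within its groups, and it had 133, 124 and 133 CPM in untreated WT, 53.8, 45.9 and 46.1 CPM in WT with H2O2, 112, 120.2 and 124 CPM in untreated *upf-1*KO and 106, 117 and 106 CPM in *upf-1*KO with H2O2. It overlaps NCU03049, and reads from overlapping genes may not be told apart. NCU08895 (chromosome V) had 97.0, 96.5 and 93.8 CPM in untreated WT and 50.1, 36.0 and 27.7 CPM with H2O2. In *upf-1*KO it was at 51.6, 54.5 and 58.7 CPM untreated and at 57.0, 60.0 and 55.95 CPM with H2O2. This gene was already low in untreated *upf-1*KO, at 0.576 of untreated WT, so its treated levels in the strains were closer to each other (37.9 ± 11.3 and 57.7 ± 2.12 CPM, SD, n = 3) than the ratios of 0.399 and 1.05 alone would show.

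NCU06694 (chromosome V) was of the same kind, with 211, 216 and 223 CPM in untreated WT and 126, 129 and 127 CPM in untreated *upf-1*KO. With H2O2 it had 51.2, 80.5 and 101 CPM in WT and 102, 155 and 116 CPM in *upf-1*KO, and the highest WT library came within 2% of the lowest *upf-1*KO library. NCU03492 (chromosome II) had 179, 188 and 199 CPM in untreated WT, 87.1, 40.6 and 50.1 CPM in WT with H2O2, 160.4, 165 and 150.1 CPM in untreated *upf-1*KO and 144, 200.2 and 125 CPM in *upf-1*KO with H2O2. Its treated groups did not overlap, and replicate 1 was the highest treated WT library.

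In NCU06128 (chromosome VII), untreated *upf-1*KO lay well above untreated WT. It had 31.1, 39.7 and 28.6 CPM in untreated WT and 68.9, 69.3 and 68.1 CPM in untreated *upf-1*KO. With H2O2 it had 16.1, 13.4 and 5.73 CPM in WT and 86.8, 43.2 and 79.1 CPM in *upf-1*KO, where replicate 2 was the lowest library. Of the 27 genes it was the only one with all untreated *upf-1*KO libraries above all untreated WT libraries (3.70%), and 22 had all of them below (81.5%). These shares were 25.7% and 40.3% over all genes tested, and 11.5% and 59.2% over the 910 genes.

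**Figure D3:**
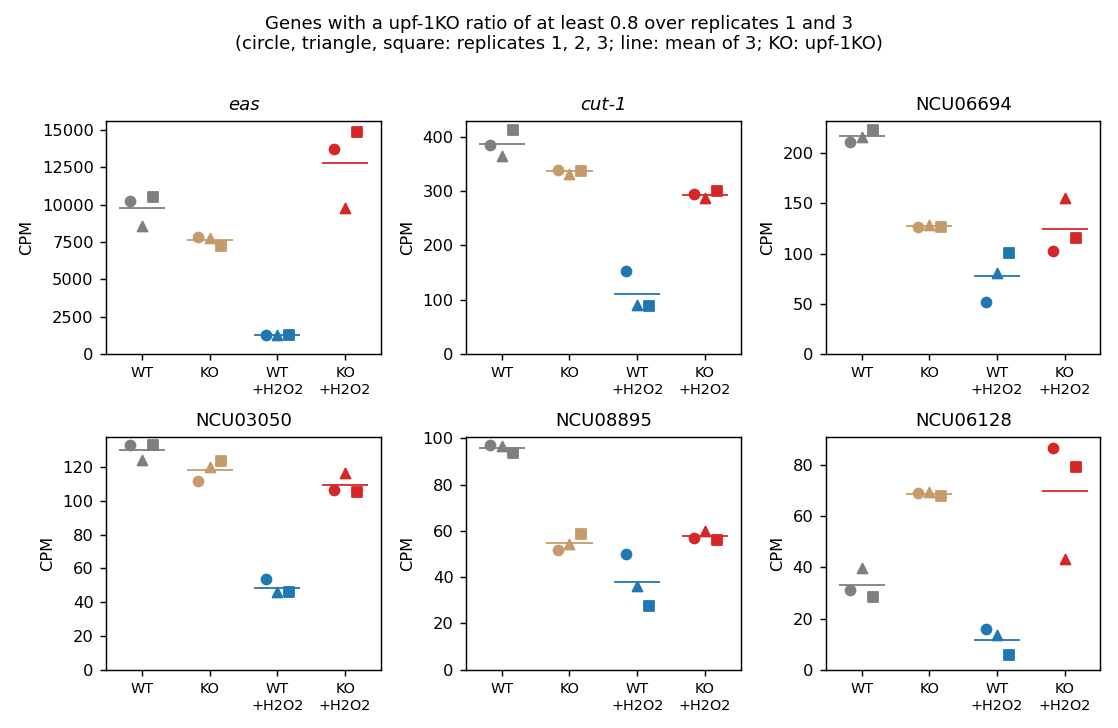
CPM in the 12 libraries for 6 of the retained genes, with a symbol for each replicate and a line at each group mean. In *upf-1*KO with H2O2, replicate 2 (triangle) lies below the other libraries for *eas*, *cut-1* and NCU06128 and above them for NCU06694, NCU03050 and NCU08895.

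For 4 retained genes, replicate 2 was still more than 2 times the other libraries of its group. NCU02155 had 18.7, 81.8 and 23.7 CPM in *upf-1*KO with H2O2, beside 23.8 to 24.8 CPM untreated. NCU08476 had 26.5, 93.0 and 29.6 CPM beside 31.5, 34.3 and 37.9 CPM, and NCU00158 had 14.8, 43.9 and 12.9 CPM beside 15.2, 14.5 and 15.6 CPM. The last of the 4, NCU03133, had 6.95, 41.2 and 10.8 CPM beside 10.5, 9.86 and 12.6 CPM, so its place among the retained genes rests on low counts. At the other end, 7 of the 27 were under 0.8 of untreated *upf-1*KO in replicate 2 alone, among them NCU08786 at 55.0, 39.2 and 60.5 CPM and NCU09933 at 31.7, 23.1 and 31.9 CPM.

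The retained genes had WT ratios of 0.129 to 0.399 with a median of 0.358, and *upf-1*KO ratios over replicates 1 and 3 of 0.805 to 1.88 with a median of 0.920. All 3 treated *upf-1*KO libraries lay above all 3 treated WT libraries for 25 of the 27, and for 26 of the other 105 (24.8%). The share was 18.1% of all genes tested and 21.4% of the 910 genes. The 27 were taken for high levels in replicates 1 and 3, which nearly sets their count. After *eas*, the highest *upf-1*KO ratio over replicates 1 and 3 was 1.20, of NCU06128. The rest were thus near or somewhat below their untreated level in replicates 1 and 3.

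**Figure D4:**
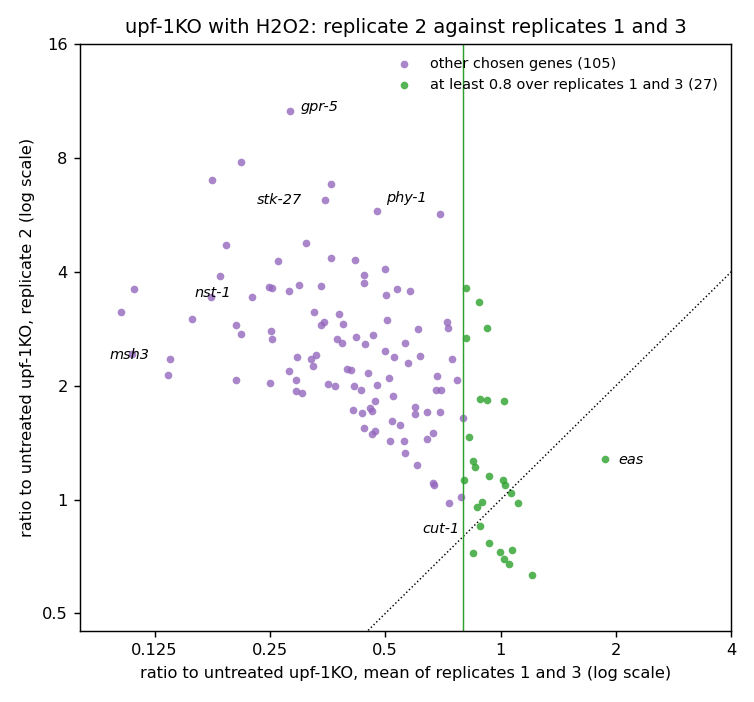
Ratio of the level with H2O2 to untreated *upf-1*KO in replicate 2 (vertical, log scale) against the mean of replicates 1 and 3 (horizontal, log scale) for the 132 chosen genes, with a dotted line at equality and a green line at 0.8. The 105 other genes lie left of the green line and above equality, with *gpr-5* at 10.7 in replicate 2 and 0.282 in replicates 1 and 3, and *eas* stands alone at the right.

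The 105 other genes carry 11 of the 13 symbols among the chosen genes, and in each of these 11 genes replicate 2 was the highest treated *upf-1*KO library. Of the signalling genes, *gpr-5* (NCU00300), which encodes a putative G protein-coupled receptor, had 14.1, 16.5 and 15.4 CPM in untreated *upf-1*KO and 4.92, 169 and 3.02 CPM with H2O2. In WT it had 19.4, 16.7 and 25.7 CPM untreated and 15.2, 4.23 and 3.58 CPM with H2O2. Replicate 2 alone thus set its *upf-1*KO ratio of 3.74, the highest of the 132, and in WT replicate 1 stood apart too, at 0.743 of untreated. The kinase gene *stk-27* (NCU04259) had 23.2, 29.0 and 29.1 CPM in untreated *upf-1*KO and 9.16, 170.4 and 9.07 CPM with H2O2. Its WT libraries had 39.1, 45.4 and 38.8 CPM untreated and 20.4, 6.70 and 7.16 CPM with H2O2. The gene *prk-4* (NCU00230), named as a protein kinase, had 64.7, 71.2 and 78.5 CPM in untreated *upf-1*KO and 31.4, 143 and 27.4 CPM with H2O2. In WT with H2O2, *prk-4* had 27.3, 17.6 and 13.6 CPM, so its treated groups did not overlap, although *upf-1*KO replicate 3 was nearly level with WT replicate 1. Over replicates 1 and 3 the ratio to untreated *upf-1*KO was 0.348 for *stk-27* and 0.415 for *prk-4*, beside WT ratios of 0.287 and 0.214.

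The phytochrome gene *phy-1* (NCU04834), a red-light photoreceptor, had 12.6, 11.7 and 12.99 CPM in untreated *upf-1*KO and 6.45, 74.4 and 4.87 CPM with H2O2. In WT it had 14.8, 15.5 and 14.03 CPM untreated and 7.35, 6.70 and 2.39 CPM with H2O2. It is the longest of the chosen genes, with 6313 bases of exon.

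Of the genes of DNA repair and chromatin, *msh3*, *mus-53* and *nst-1* were especially low in replicates 1 and 3. The gene *msh3* (NCU08115), a mismatch repair protein, had 12.8, 12.1 and 12.2 CPM in untreated *upf-1*KO and 1.87, 29.8 and 0.67 CPM with H2O2. In WT it had 12.97, 14.8 and 14.6 CPM untreated and 0.92, 2.47 and 1.43 CPM with H2O2, which rests on 4, 7 and 6 counts. The gene *mus-53* (NCU06264), which encodes the DNA ligase of non-homologous end joining, had 8.27, 11.1 and 9.65 CPM in untreated *upf-1*KO and 1.19, 30.01 and 1.01 CPM with H2O2. Replicates 1 and 3 were at 0.138 of untreated for *msh3* and at 0.157 for *mus-53*, beside 0.144 and 0.275 in WT, so in these libraries both were about as low as in WT or lower. A further gene of the mutagen-sensitive series, *mus-27* (NCU08484), had 24.1, 22.4 and 26.9 CPM untreated and 10.5, 66.7 and 9.41 CPM with H2O2 in *upf-1*KO. The gene *nst-1* (NCU04737), a histone deacetylase of the Sir2 family, had 46.5, 42.3 and 45.8 CPM in untreated *upf-1*KO and 7.97, 155 and 11.4 CPM with H2O2. In WT it had 67.8, 64.7 and 60.6 CPM untreated and 20.9, 13.4 and 15.1 CPM with H2O2, so replicates 1 and 3 of *upf-1*KO lay below all 3 treated WT libraries.

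Genes of protein turnover and RNA processing differed less between the libraries. The gene *cul-1* (NCU05204), the cullin scaffold of SCF ubiquitin ligases, had 95.1, 86.6 and 94.2 CPM in untreated *upf-1*KO and 63.3, 157 and 64.3 CPM with H2O2. In WT it had 103, 112 and 101 CPM untreated and 34.7, 37.8 and 41.6 CPM with H2O2. For *cul-1* the treated groups did not overlap, and replicates 1 and 3, at 0.696 of untreated, lay between the treated WT and the untreated libraries. The gene *rpn-8* (NCU01547), a subunit of the proteasome lid, had 108, 102 and 104 CPM in untreated *upf-1*KO and 49.4, 169 and 59.0 CPM with H2O2, beside 50.3, 43.8 and 32.2 CPM in WT with H2O2. The gene *cyt-19* (NCU07670), a DEAD-box protein that helps to splice mitochondrial group I introns, had 65.3, 65.2 and 65.6 CPM in untreated *upf-1*KO and 52.1, 128 and 36.3 CPM with H2O2, beside 30.8, 45.2 and 44.7 CPM in WT with H2O2. For *rpn-8* and *cyt-19*, the treated strains overlapped. Both genes overlap a neighbour on the chromosome, which for *cyt-19* is the gene *pco-1*.

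**Figure D5:**
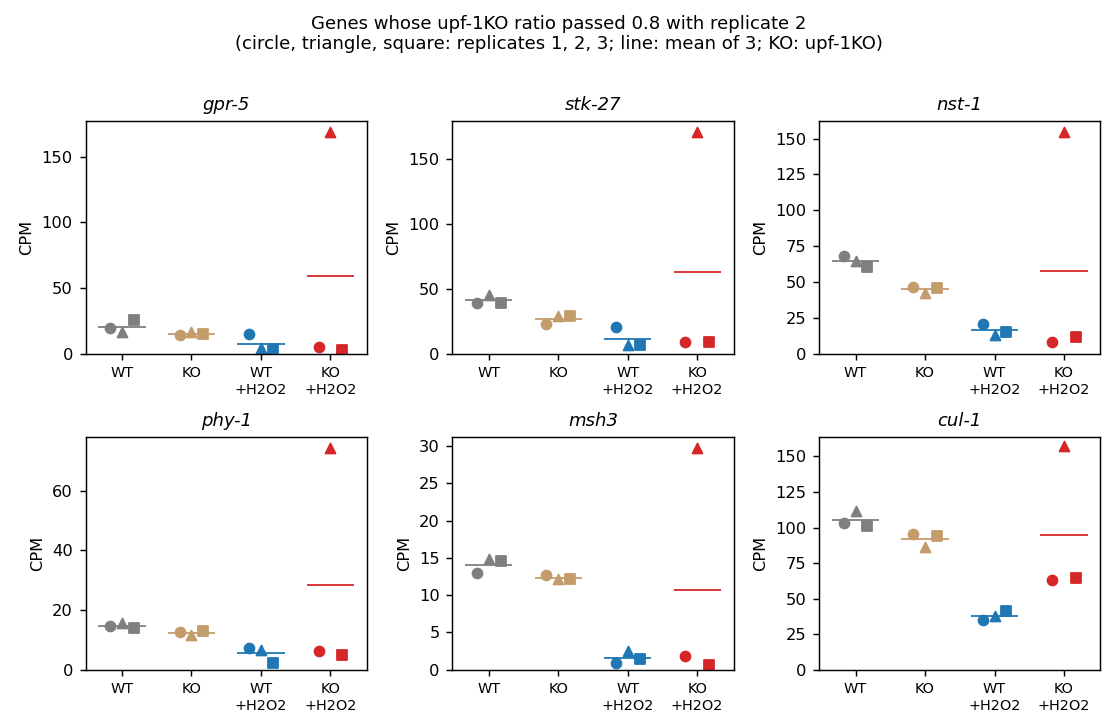
CPM in the 12 libraries for 6 of the 105 other chosen genes, with a symbol for each replicate and a line at each group mean. In *upf-1*KO with H2O2, replicate 2 (triangle) lies above every other library in all 6 panels, and replicates 1 and 3 lie within or near the treated WT libraries for all but *cul-1*.

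Among the other genes without a symbol, those of the highest level behaved likewise. NCU04770, the third of the 132 by untreated WT level, had 265, 245 and 255 CPM in untreated *upf-1*KO and 103, 679 and 87.4 CPM with H2O2. NCU00169 had 122, 138 and 124 CPM untreated and 78.5, 456 and 69.2 CPM with H2O2, and NCU04718 had 124, 126 and 124 CPM untreated and 55.3, 211 and 52.1 CPM with H2O2. In each of these 3 genes, replicate 2 was above all untreated libraries of both strains. NCU06540 had 139, 136 and 138 CPM in untreated *upf-1*KO and 39.7, 267 and 40.1 CPM with H2O2. It overlaps NCU06539, a retained gene with 18.2, 14.4 and 16.9 CPM untreated and 15.8, 30.5 and 14.4 CPM with H2O2, so the assignment of reads between these chosen neighbours is uncertain.

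The 8 genes with the lowest WT ratio, between 0.108 and 0.158, were NCU06483, NCU04606, NCU08509, *eas*, NCU02796, *msh3*, NCU08628 and NCU05939. All but *eas* belonged to the 105 other genes. NCU06483 had 50.6, 46.9 and 48.9 CPM in untreated WT and 10.3, 2.47 and 1.67 CPM with H2O2, with 4.07, 98.4 and 3.86 CPM in *upf-1*KO with H2O2. NCU04606 had 5.29, 2.82 and 0.96 CPM in WT with H2O2 and 4.92, 134 and 2.86 CPM in *upf-1*KO with H2O2. Leaving replicate 2 aside, both genes were as low in the treated *upf-1*KO libraries as in WT, with ratios of 0.109 and 0.102 over replicates 1 and 3. NCU08509 rested on 9, 0 and 2 counts in WT with H2O2, and NCU08628 on 8, 3 and 3. NCU02796 had 11.5, 2.47 and 1.19 CPM in WT with H2O2, where replicate 1 was the highest, and 8.65, 105 and 9.91 CPM in *upf-1*KO with H2O2. NCU05939 had 2.99, 2.82 and 2.87 CPM in WT with H2O2 and 3.90, 45.5 and 2.18 CPM in *upf-1*KO with H2O2.

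The 6 genes with the highest *upf-1*KO ratio, between 2.30 and 3.74, were *gpr-5*, NCU01865, NCU07381, NCU09085, NCU04455 and *stk-27*. In *upf-1*KO with H2O2, NCU01865 had 1.36, 71.2 and 1.51 CPM, NCU07381 had 5.94, 101 and 3.86 CPM, and NCU04455 had 11.9, 98.4 and 11.3 CPM. NCU09085 had 41.5, 39.1 and 42.6 CPM in untreated *upf-1*KO and 9.33, 290.4 and 4.37 CPM with H2O2. It also varied in WT with H2O2, at 34.5, 9.53 and 4.06 CPM, where replicate 1 was at 0.786 of untreated. None of the 6 was a retained gene.

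In WT, all 3 treated libraries lay below all 3 untreated libraries for each of the 132 genes, which the WT condition nearly fixes. The WT ratios had a median of 0.316 and quartiles of 0.267 and 0.365. Replicate 1 was the highest treated WT library for 75 of the 132 genes (56.8%), against 39.6% of all genes tested, and its ratio was at most 0.4 for 88 of them, against 108 in replicate 2 and 119 in replicate 3. Untreated *upf-1*KO was at 0.802 of untreated WT at the median, against 0.917 for all genes tested and 0.843 for the 910 genes that met every condition but the one on *upf-1*KO with H2O2, and all 3 of its libraries were below those of untreated WT for 89 of the 132 genes (67.4%), against 40.3% of all genes tested and 59.2% of the 910.

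The genes just inside the WT threshold of 0.4 were NCU08904 and NCU08895, both at 0.399, and *cyt-19* at 0.397. Just outside it were NCU05648 and NCU07871, both at 0.402, and *pex3*, a peroxisome assembly factor, at 0.403. Just inside the *upf-1*KO threshold of 0.8 were NCU01475 at 0.801, NCU06958 at 0.806 and NCU00919 at 0.807. Just outside it were NCU08599 and NCU04439, both at 0.798, and NCU09395 at 0.796. NCU08599, outside, had 9.33, 61.6 and 4.37 CPM in *upf-1*KO with H2O2 and NCU01475, inside, had 1.02, 26.03 and 1.34 CPM, so on both sides of this threshold replicate 2 was the high library. NCU06958, a retained gene, had 46.8, 40.01 and 47.7 CPM there, and without replicate 2 it lay further inside, at 0.849.

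The 910 genes that met the other conditions but not the one on *upf-1*KO with H2O2 give the closest comparison. Their median WT ratio was 0.276. In *upf-1*KO their median ratio was 0.303 in replicate 1, 0.556 in replicate 2 and 0.282 in replicate 3. Replicate 2 was thus the highest library of its group for most of these genes too (723 of 910, 79.5%), and it was more than 2 times both others for 365 (40.1%), against 104 of the 132 chosen genes (78.8%) and 18.2% of all genes tested.

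Some properties of the genes are given without a test, and apart from the level they were not part of the rule. The chosen genes had a median exon length of 2757 bases, against 2209 for all genes tested and 3366 for the 910 genes. The retained genes were shorter (median 1884 bases) than the other 105 (2975 bases). All chosen genes had 1 to 6 exons. A single exon was present for 33 of the 132 (25%), against 20.9% of all genes tested and 26.7% of the 910. Per length, the untreated WT level was 18.6 FPKM at the median, against 16.2 for all genes tested, 15.99 for the 910 genes under the same minimum and 25.6 for the retained genes. An overlap with another annotated gene was present for 51 of the 132 genes (38.6%), against 25.8% of all genes tested and 25.8% of the 910. Whether reads were counted by strand is not given in the sources used here, so the counts of these 51 genes are uncertain where the partner is expressed. The chosen genes were spread over the chromosomes, with 27 of 1990 tested genes on chromosome I, 15 of 841 on II, 25 of 997 on III, 23 of 1178 on IV, 15 of 1291 on V, 19 of 767 on VI and 8 of 794 on VII. Of the retained genes, 9 were on chromosome IV and 6 on I. Among neighbours along a chromosome, 2 pairs were adjacent (NCU06539 with NCU06540, and NCU08510 with NCU08509).

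Lists of genes were taken by symbol, and they hold few of the chosen genes because 119 of the 132 have no symbol. The list of DNA repair, checkpoint and replication genes held 3 chosen genes (*msh3*, *mus-53* and *mus-27*) of 51 tested, and the kinase list held 2 (*stk-27* and *prk-4*) of 61. The chromatin list held *nst-1* of 58, the list of G protein and cAMP signalling *gpr-5* of 21, the list of clock and light response *phy-1* of 22 and the list of conidiation and clock-controlled genes *eas* of 27. The list of the respiratory chain held *cyt-19* of 74, by the pattern of its symbol only, since its product acts on intron splicing. No chosen gene was in the lists of catalases and superoxide dismutases (6 tested), amino acid biosynthesis (65), transcription factors (39) or cell wall synthesis (23). Over all genes tested, 132 of 7878 were chosen. At that share, lists of these sizes would hold few chosen genes or none, so nothing is read from the counts per list.

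Over the whole of these lists, some median ratios moved with replicate 2 and others did not. For DNA repair genes the median ratio was 0.671 in WT, 1.10 in *upf-1*KO and 0.669 in *upf-1*KO without replicate 2. For chromatin genes it was 0.619, 0.766 and 0.565, and for kinases 0.568, 0.723 and 0.576, in the same order, beside 0.917, 1.05 and 0.962 for all genes tested. Some other lists showed no such drop, and their medians in this order were 0.599, 0.709 and 0.704 for transcription factors, 1.02, 1.20 and 1.24 for clock and light response, 1.05, 1.48 and 1.52 for conidiation and clock-controlled genes, 1.27, 1.33 and 1.43 for the respiratory chain, and 1.45, 1.13 and 1.28 for amino acid biosynthesis. In WT, 14 of the 51 DNA repair genes, 21 of the 58 chromatin genes and 25 of the 61 kinase genes were called lower with H2O2 by edgeR's quasi-likelihood test (log2 fold change of at most -1 with an unadjusted p under 0.05), against 24.4% of all genes tested. In *upf-1*KO, 6, 14 and 15 genes of these 3 lists were called lower, against 16.1% of all genes tested, and 11, 9 and 3 were called higher, against 18.2%.

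By the same test, 114 of the 132 chosen genes were called lower in WT with H2O2, where 24.4% of all genes tested were. None was called lower in *upf-1*KO with H2O2, where 16.1% of all genes were, and none was called higher, where 18.2% were. At an unadjusted p under 0.05 whatever the fold, 0 were lower and 1 was higher in *upf-1*KO with H2O2, and DESeq2 called none lower either. The rule had already set these contrasts, so nothing is read from the counts. Without replicate 2 of *upf-1*KO with H2O2, 71 of the 132 genes were called lower in *upf-1*KO and 132 in WT. None was called lower in untreated *upf-1*KO than in untreated WT (2.67% of all genes were, and 0 of the 132 by DESeq2). Genes with a low ratio of untreated *upf-1*KO to untreated WT had been left out by the rule. The absence of such calls was thus nearly fixed in advance, and nothing is read from it. At an unadjusted p under 0.05 whatever the fold, 11 of the 132 were lower in untreated *upf-1*KO. With H2O2 in both strains, 95 of the 132 genes were called higher in *upf-1*KO than in WT, where 15.4% of all genes were, and 24 without replicate 2. The rule fixes this direction for the means of every chosen gene, so nothing is read from these counts either.

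A difference between the strains in the H2O2 effect was called for 28 of the 132 genes (interaction in edgeR's quasi-likelihood test, Benjamini-Hochberg adjusted p under 0.05), where 6.71% of all genes tested were called. Of these 28, 23 were retained genes and 5 were among the other 105. This count depended on the libraries in the fit: it was 49 without replicate 2 of *upf-1*KO with H2O2, 41 without its replicate 3, and 10 or 11 without any 1 of the untreated libraries, 12 without WT with H2O2 replicate 2 and 13 without its replicate 3. Since the rule was built on the same contrast, the calls only describe the chosen genes, and they support nothing further. A called gene need not have a small spread, as NCU02155 was called with 18.7, 81.8 and 23.7 CPM in *upf-1*KO with H2O2.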

How the data were processed

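RNA-seq libraries of mycelia of the WT and *upf-1*KO strains without or with 20 mM H2O2 (3 libraries in each of 4 groups) were analysed. The authors deposited raw counts per gene, made with featureCounts (Subread 2.0.1) from HISAT2 2.2.1 alignments to *N. crassa* OR74A (NC12). The authors also deposited FPKM values made from the same reads, used here only for levels per length. Groups came from the sample titles. Whether counting used the strand, and which of the 2 instruments named in the methods of the study ran which library, are not given in the sources used here.

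The counts were fitted with edgeR 4.0.16 in R 4.3.3 (filterByExpr over 4 groups, TMM, glmQLFit and glmQLFTest over all 12 libraries) and summarised in Python 3.11.15. Between 5891672 and 7703271 counts per library set the precision. At a few counts per library, ratios carry large counting error. Gene lists were symbol patterns. Lists by product name could not be used, as no product names were at hand. The 0.5 CPM of the rule was added before the minimum of 10 CPM was applied, and 131 genes met the rule in the other order. The count model and the rule were also run on simulated data with 200 changed genes. The outcome of that run is not given here, so nothing is read from it. In particular, it is not used to judge the rule where a library stands apart from its group.

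The chosen genes and the lists were chosen with earlier results of these data known. The genes named were the 8 of highest untreated WT level, the 8 of lowest WT ratio, the 6 of highest *upf-1*KO ratio, the 3 just inside and just outside each threshold of 0.4 and 0.8, the chosen genes with a symbol, and *upf-1*. Retained genes named outside this rule, such as NCU03050 and NCU06128, and the neighbour NCU08510 were chosen after their values were seen. Alternatives were DESeq2 1.42.0, its size factors, library totals alone, no filter, at least 10 counts in every library, group medians, the adjusted p in the threshold, only the 2 groups compared, a replicate block and each library left out. Each *upf-1*KO library with H2O2 taken alone and the other reading of the minimum were added after seeing the data.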

Additional observations from a re-analysis of the deposited data

Results flagged for a closer look

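For 13 of the genes named in the report, the H2O2 effect in *upf-1*KO minus that in WT was called different from 0 in the interaction test of edgeR, and all 13 are retained genes. The genes were chosen by the same contrast, so these values are a description of size. The log2 difference was 3.70 for *eas*, 1.61 for *cut-1*, 1.46 for NCU06694, 1.65 for NCU03492, 1.19 for NCU08904, 1.40 for NCU08895 and 1.20 for NCU06958. Among the genes named after their values were seen, it was 1.31 for NCU03050, 2.47 for NCU02155, 2.17 for NCU00158, 1.36 for NCU08786, 1.34 for NCU09933 and 2 for NCU06539. In this last list, the values of 2 or more were raised by replicate 2 of *upf-1*KO with H2O2. The *upf-1*KO ratios of NCU02155, NCU00158 and NCU06539 were 1.70, 1.56 and 1.22, but 0.879, 0.920 and 0.920 over replicates 1 and 3. In each of the 13 genes, the mean of the treated *upf-1*KO libraries lay above that of the treated WT libraries. The conditions of the rule together fix this order for every chosen gene.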

How the results depend on the processing

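The number of genes that met the rule was 132, and it was 403 with library totals alone (52 of them among the 132), 47 with group medians (28 shared), and 34, 395 and 35 with replicate 1, 2 or 3 of *upf-1*KO with H2O2 alone. With 1 library left out in turn it ranged from 34 (without replicate 2 of *upf-1*KO with H2O2) to 146, and it was 86 without WT with H2O2 replicate 3. It was 96 with DESeq2's size factors (93 shared), 110 without a filter and 113 with at least 10 counts in every library. Of the 132, the number called lower in WT with H2O2 was 84 with DESeq2 and 87 to 132 with 1 library left out. The number called lower in *upf-1*KO with H2O2 was 1 with library totals alone and 0 to 71 with 1 library left out. The number with a strain difference in the H2O2 effect was 44 with DESeq2, 48 with library totals alone and 10 to 49 with 1 library left out. The number called lower in untreated *upf-1*KO, which the rule nearly fixes, was 0 to 1 with 1 library left out. The number called higher in *upf-1*KO than in WT, both with H2O2, was 55 with DESeq2, 54 with the adjusted p in the threshold, 57 with only the 2 groups fitted and 24 to 115 with 1 library left out. The log2 change of NCU04242 (*upf-1*) with H2O2 in WT was above 0 with TMM (ratio 2.08) and turned to -0.193 with library totals alone. Of the single-gene values under the alternatives, 1422 stayed within the spread, 109 moved and 1 was counted as turned in sign. A turn was counted only for values called in the main fit (log2 fold change of at least 1 in size, unadjusted p under 0.05). No chosen gene was called in *upf-1*KO with H2O2, so a change of sign there was counted as moved or as within the spread. The cause of these shifts was not tested.

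The sample titles give replicate numbers but do not say whether these pair the samples, and the main fit did not pair them. Of 18 correlations of deviations between same-numbered libraries, 3 were over 0.1 (range -0.26 to 0.24). With 3 libraries per group, some of which stood apart, such values cannot show that the numbers share no culture or batch. With the replicate block, 115 of the 132 genes were called lower in WT, 0 lower in *upf-1*KO, 19 with a strain difference, 0 lower in untreated *upf-1*KO and 64 higher in *upf-1*KO with H2O2.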
